A study of Homo sapiens with 8 samples.

Results

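The genes of cholesterol and fatty acid synthesis were followed in naive H3122 cells and in 3 derivatives that had become resistant to inhibitors of the kinase ALK. The group was given as 32 gene symbols covering the regulators of the pathway, the mevalonate arm, the sterol arm, fatty acid synthesis and sterol transport. All 32 were found by gene identifier among the 43869 genes of the table, and all 32 were among its 12701 expressed genes. A gene was called expressed when its RNA value reached log2 of 25 reads, which is 4.64, in at least 1 library. H3122 is an established lung adenocarcinoma line that depends on an EML4-ALK fusion. The derivatives erCriz0, erAlec0 and erLor0 had evolved under gradually raised inhibitor with crizotinib at 0.5 μM for erCriz0, alectinib at 2 μM for erAlec0 and lorlatinib at 2 μM for erLor0, and the labels give 0.1% DMSO for every sample. RNA was collected after a period without inhibitor, and each line gave 1 RNA-seq and 1 H3K27ac ChIP-seq library. The series' samples erCriz1, erLor1, Lor 2w and pooled input were not analysed here.

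SREBP transcription factors, encoded by SREBF1 and SREBF2, are held in the endoplasmic reticulum by the sterol sensor SCAP and its INSIG partners. When sterols are scarce SCAP escorts them to the Golgi, where proteases free the part that enters the nucleus and switches on lipid synthesis genes. SREBF2 is best known for cholesterol synthesis and SREBF1 for fatty acid synthesis, and both kinds of lipid are used for membranes by dividing tumor cells. The mevalonate arm builds farnesyl pyrophosphate from acetyl-CoA, the sterol arm turns it into squalene and then cholesterol, and the fatty acid arm makes, lengthens and desaturates acyl chains.

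Values are rlog values, a log2 of the normalized read count that is drawn toward the mean of a gene where reads are few, and a change is the difference of a resistant line from naive cells. Up means a change of 1 or more and down one of −1 or less. There are no replicates, so no difference below has a replicate check, no p-value is given, and the depth of each library is unknown. The median RNA value of expressed genes lay between 8.09 and 8.14 in the 4 libraries. In bulk RNA, fewer cells of a type and less RNA per cell cannot be told apart. All 6 epithelial markers examined were expressed, with EPCAM at 12.34 and KRT8 at 13.55 in naive cells, and so was NKX2-1, a lung lineage factor, at 8.68, whereas the alveolar markers NAPSA and SFTPB stayed below the minimum. No haematopoietic marker examined was expressed, and PTPRC, the pan-leukocyte marker, was listed at 0 in all 4 libraries. Of 3 endothelial markers only CDH5 was expressed, with changes of 1.68 in erAlec0 and 1.54 in erLor0, while of 3 fibroblast markers only COL1A1 was, with changes of 0.22 to 0.59. The part of these markers in the results was not tested.

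The lipid synthesis genes as a group moved little. Over the 4 lines the widest ranges were those of FASN, SREBF1, FADS2 and SCD, at 1.71, 1.62, 1.41 and 1.32. Within single lines other genes ranked high too, such as ACAT2 in erAlec0 and LSS in erLor0, with changes of −0.88 and 0.73. FASN, the fatty acid synthase, was the only gene down in erCriz0, and FADS2, the delta-6 desaturase, the only one down in erAlec0. None was up in any line and none was down in erLor0. That was 0 up and 1 down of 32 in erCriz0, where 2.65% and 1.65% of expressed genes were up and down, 0 up and 1 down in erAlec0, against 2.46% and 2.07%, and 0 up and 0 down in erLor0, against 1.1% and 0.74%. With so small a background these counts do not set the group apart. The direction of the smaller differences varied by line. In erLor0 26 of the 32 genes had higher values than in naive cells, where 49.4% of expressed genes did, with a median change of 0.19 against −0.00 over expressed genes. In erCriz0 only 12 were higher, where 47.9% of expressed genes were, with a median of −0.21 against −0.02, and in erAlec0 16 were higher, where 50.3% were, with a median of 0.03 against 0.00.

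**Figure D1:**
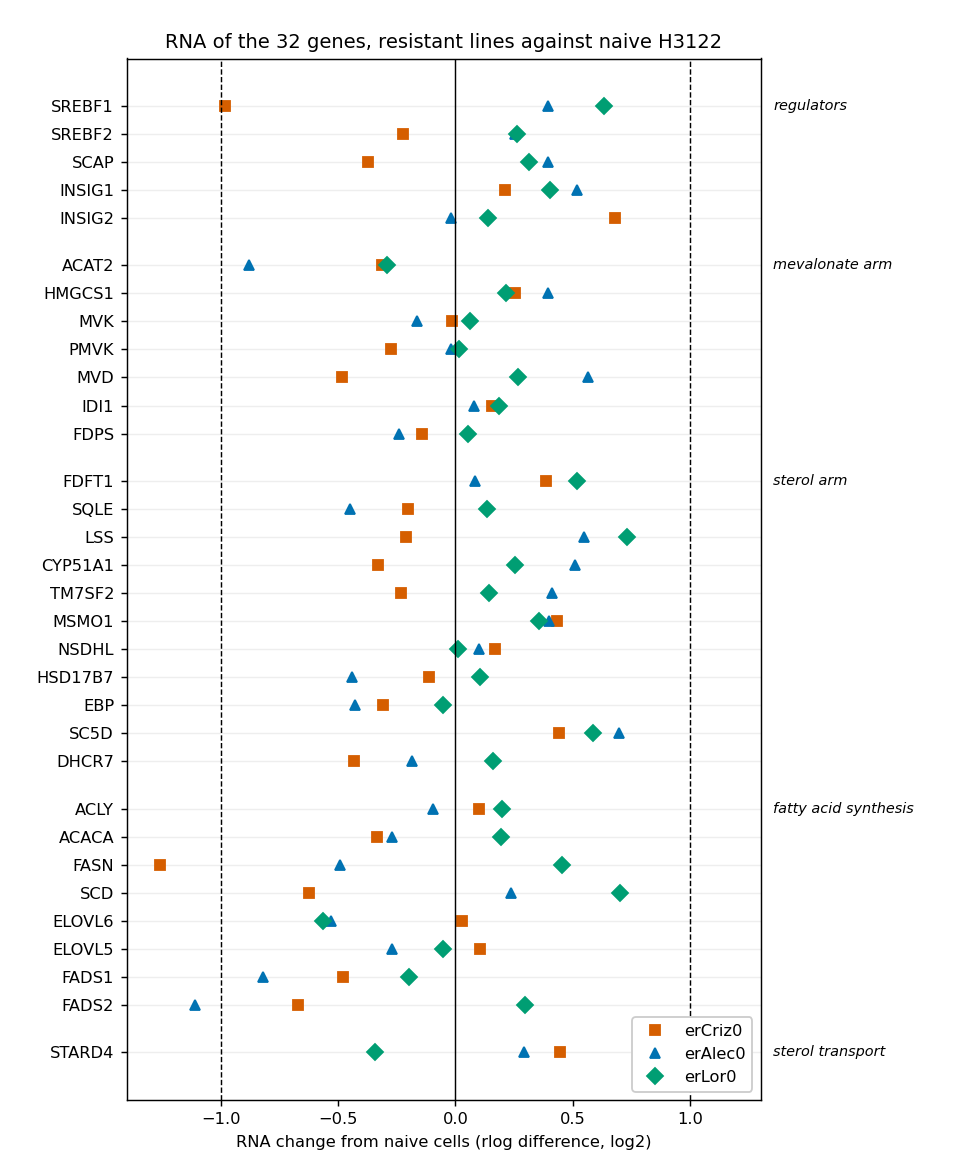
Each row is 1 of the 32 genes, grouped by role, and the horizontal axis gives the RNA change from naive cells as an rlog difference on the log2 scale, with 1 point per resistant line and dashed lines at −1 and 1. FASN in erCriz0 (−1.26) and FADS2 in erAlec0 (−1.11) are the points left of the lower line, and most erLor0 diamonds lie right of 0.

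At a smaller limit of 1.5-fold the counts were also small, and a few genes either way do not set the group apart. In erCriz0 1 gene was up and 4 were down, where 7.56% and 8.52% of expressed genes passed this limit. INSIG2 was up, and FASN, SREBF1, FADS2 and SCD were down. In erAlec0 SC5D alone was up and ACAT2, FADS1 and FADS2 were down, against 7.94% and 8.0%. In erLor0 LSS, SCD, SREBF1 and SC5D were up and none was down, against 4.44% and 3.65%. Across the 4 lines, erLor0 held the highest value for 16 of the 32 genes, as for 17.4% of expressed genes, and erCriz0 the lowest for 12, as for 33.0%. Naive cells had the lowest value for 7 genes, as for 22.5% of expressed genes, namely INSIG1, HMGCS1, IDI1, FDFT1, MSMO1, NSDHL and SC5D.

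RNA changes in erCriz0 followed the base composition of transcripts, which bears on the GC-rich genes of the group. Over 12683 expressed genes with an annotated transcript, the rank correlation of the change with transcript GC content was −0.44, 0.15 and 0.19 in erCriz0, erAlec0 and erLor0. Genes in the highest of 20 GC bins, at or above 63.7% GC, had a median change of −0.47 in erCriz0, and those in the lowest bin, at or below 36.7%, one of 0.19. Values are therefore also given below after the median of genes of like GC content was subtracted, an adjustment added after seeing the data. So adjusted, the median of the 32 genes in erCriz0 was −0.026. The source of the trend was not tested.

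Promoter letters of 28 of the 32 genes were at hand, from RefSeq on GRCh38.p14, as windows of 250 bases before to 50 after a start. They were searched on both strands for the sterol response element TCACNCCAC, the E-box CACGTG, which reads the same on both strands, the CCAAT box CCAAT bound by NF-Y, and the GC box GGGCGG bound by SP1. None of these contains another. A CCAAT box was found in 75.0% of the 28 genes and in 39.7% of 27305 genes, and a GC box in 92.9% against 48.3%. An E-box was found in 5 of the 28, ELOVL5, INSIG1, LSS, SC5D and SCAP, or 17.9% against 8.77%, and the sterol response element in SREBF2 alone, or 3.57% against 1.39%. The 27305 genes are all those with a promoter entry, expressed or not, and a gene counted when any of its windows matched. Whether the 28 genes differ from other expressed genes in these shares was not tested. A match is a description of the letters and not a binding site. Only these exact letters within these windows were searched, so a missing match does not show that a gene lacks such an element. ACAT2, FDFT1, SQLE and FASN had no entry. The bases before the start are shown for SREBF1 and SREBF2, which encode the factors, for 4 genes lowest in naive cells, and for SCD, which parted the lines. Capitals mark a sterol response element, an E-box or a CCAAT box in either strand's letters (ATTGG is the reverse of CCAAT), and GC boxes stay in lower case.
The SREBF2 stretch is chr22:41832855-41833078 on the plus strand and has a sterol response element and a CCAAT box.
SREBF2: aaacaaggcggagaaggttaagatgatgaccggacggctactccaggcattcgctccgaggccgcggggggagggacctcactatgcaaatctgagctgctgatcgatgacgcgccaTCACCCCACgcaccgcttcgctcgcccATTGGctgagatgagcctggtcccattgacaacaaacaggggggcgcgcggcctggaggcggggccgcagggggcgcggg
The SREBF1 stretch is chr17:17837012-17837236 on the minus strand and has none of the 3 capitalised motifs.
SREBF1: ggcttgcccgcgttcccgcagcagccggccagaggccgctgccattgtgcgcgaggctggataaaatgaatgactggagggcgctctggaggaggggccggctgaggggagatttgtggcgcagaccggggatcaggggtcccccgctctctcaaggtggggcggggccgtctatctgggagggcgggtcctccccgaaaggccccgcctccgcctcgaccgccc
The INSIG1 stretch is chr7:155297628-155297775 on the plus strand and has 1 CCAAT box, while its E-box lies past the first annotated start.
INSIG1: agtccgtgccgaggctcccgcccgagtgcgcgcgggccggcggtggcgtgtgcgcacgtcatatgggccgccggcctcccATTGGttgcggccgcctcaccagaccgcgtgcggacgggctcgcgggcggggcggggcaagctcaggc
The HMGCS1 stretch is chr5:43313513-43313662 on the minus strand and has 1 CCAAT box.
HMGCS1: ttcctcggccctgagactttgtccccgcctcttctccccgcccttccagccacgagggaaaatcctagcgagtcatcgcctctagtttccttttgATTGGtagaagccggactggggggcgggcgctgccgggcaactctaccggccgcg
The MSMO1 stretch is chr4:165327419-165327666 on the plus strand and has 4 CCAAT boxes.
MSMO1: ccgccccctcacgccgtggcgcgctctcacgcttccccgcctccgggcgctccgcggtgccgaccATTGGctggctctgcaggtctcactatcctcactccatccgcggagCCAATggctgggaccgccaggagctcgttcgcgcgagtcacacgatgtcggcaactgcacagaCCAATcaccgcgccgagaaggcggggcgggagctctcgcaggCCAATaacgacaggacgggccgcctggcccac
The SC5D stretch is chr11:121292521-121292680 on the plus strand and has 1 E-box.
SC5D: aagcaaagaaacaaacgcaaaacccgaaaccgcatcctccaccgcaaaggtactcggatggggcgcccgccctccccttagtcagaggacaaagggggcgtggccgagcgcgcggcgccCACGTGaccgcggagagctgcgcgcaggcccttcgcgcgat
The SCD stretch is chr10:100346983-100347232 on the plus strand and has 2 CCAAT boxes.
SCD: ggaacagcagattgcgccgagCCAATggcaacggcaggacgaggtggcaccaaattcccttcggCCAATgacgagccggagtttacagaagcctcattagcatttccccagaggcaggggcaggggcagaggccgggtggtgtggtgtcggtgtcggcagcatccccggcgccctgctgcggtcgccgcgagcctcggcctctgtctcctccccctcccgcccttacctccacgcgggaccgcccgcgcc

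Among the regulators, SREBF1 moved most. The naive, erCriz0, erAlec0 and erLor0 libraries read 12.76, 11.78, 13.16 and 13.40. Thus erCriz0 was the lowest and erLor0 the highest, with changes of −0.98, 0.39 and 0.63, just within the limit of 1 in erCriz0 and past it, at −1.102, after quantile normalization. Only 1.79% of expressed genes changed as low in erCriz0 and 3.82% as high in erLor0. The transcript is GC-rich at 63.2%, and the erCriz0 change was −0.65 after subtraction of genes of like GC content. SREBF1 (ENSG00000072310.17, chr17:17810399-17837011 of hg38, minus strand) overlaps RAI1 on the other strand and the intronic microRNA MIR33B.

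The SREBF1 neighbourhood on chromosome 17 differed as a whole in erAlec0. Of the 76 other expressed genes within 5 Mb, 70 were higher and 33 were up in erAlec0, with a median change of 0.90, and only 13 had a change at or below that of SREBF1. In erLor0 the regional median was 0.37 with 5 genes up, and in erCriz0 it was −0.13 with 2 up and 1 down. Relative to these neighbours SREBF1 stood at −0.86, −0.50 and 0.26 in erCriz0, erAlec0 and erLor0, so its positive erAlec0 value was below that of the region. H3K27ac is a histone mark of active promoters and enhancers. The SREBF1 promoter peak (chr17:17833600-17850235) had values of 12.27, 12.55, 13.04 and 12.90 in naive, erCriz0, erAlec0 and erLor0 cells. Its changes of 0.28, 0.78 and 0.63 compare with regional peak medians of 0.01, 0.75 and 0.29. Relative to its region the peak thus stood at 0.28, 0.03 and 0.34. In erCriz0 and erAlec0 this was unlike the RNA, which was below its region, whereas in erLor0 both were above. By SNP array, the paper reports recurrent amplifications in resistant lines on several chromosomes, including the one that carries this region. Its text does not say which lines or which part of that chromosome. Whether the region's DNA copy number differs in the lines compared here was not tested with the present data.

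**Figure D2:**
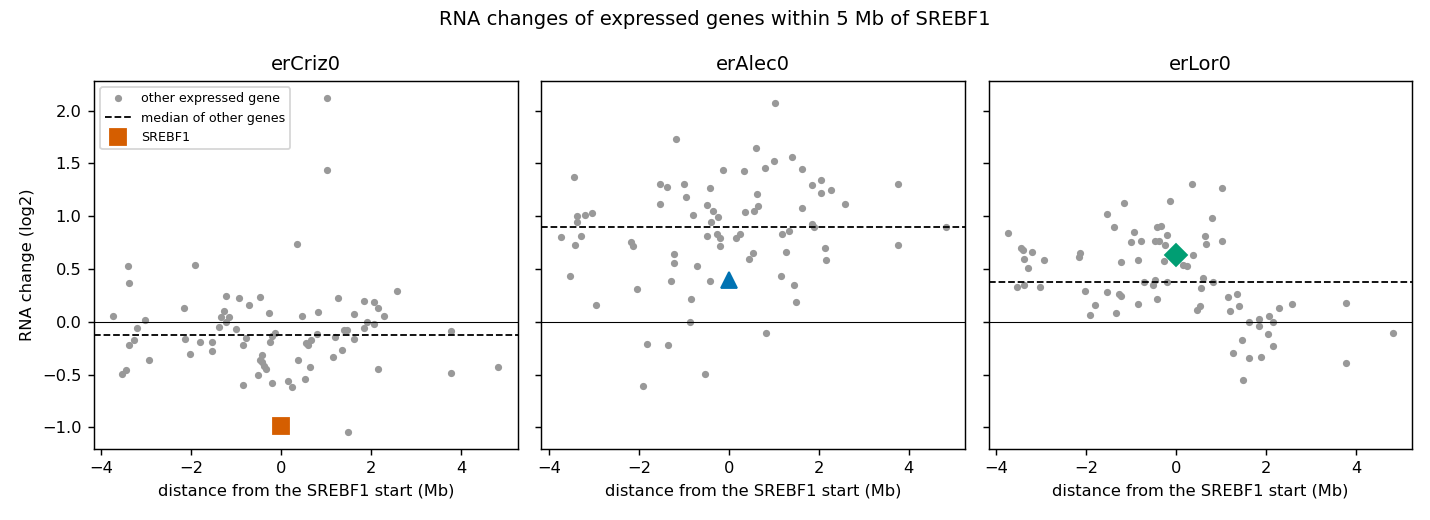
RNA changes of the 76 other expressed genes within 5 Mb of SREBF1 (grey points) and of SREBF1 (large symbol) against distance from its start in Mb, 1 panel per resistant line, with the median of the other genes dashed. In erAlec0 the grey points lie mostly above 0 with a median of 0.90 and SREBF1 lies below it, whereas in erCriz0 SREBF1 lies near the bottom of the cloud.

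SREBF2, the factor of cholesterol synthesis whose promoter letters above hold a sterol response element, varied much less. It read 12.07, 11.84, 12.32 and 12.33 in naive, erCriz0, erAlec0 and erLor0 cells, with changes of −0.22, 0.25 and 0.26. SCAP, the escort of both factors, read 8.66, 8.29, 9.06 and 8.97 in the same order. Both genes were thus lowest in erCriz0 and higher in the other resistant lines than in naive cells. After the GC adjustment the erCriz0 change was −0.04 for each of SREBF2 and SCAP. INSIG1, the retention protein that SREBPs themselves induce, read 10.01, 10.22, 10.53 and 10.42, higher in every resistant line. INSIG2, its relative that is less dependent on SREBPs, read 6.16, 6.83, 6.14 and 6.29 and was higher mainly in erCriz0. Its erCriz0 change of 0.68 was 0.49 after the GC adjustment, since its transcript is AU-rich at 36.3% GC. The 5 regulators had median changes of −0.22, 0.39 and 0.31 in erCriz0, erAlec0 and erLor0.

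The mevalonate arm of 7 genes held close to naive levels, with median changes of −0.14, −0.02 and 0.06 in erCriz0, erAlec0 and erLor0 and no gene past the limit of 1. ACAT2, the cytosolic thiolase that joins acetyl-CoA units, read 8.74, 8.42, 7.86 and 8.45 in naive, erCriz0, erAlec0 and erLor0 cells. It was highest in naive cells, and its erAlec0 change of −0.88 compares with a median of −0.38 for genes within 5 Mb. ACAT2 overlaps TCP1 and SOD2 on the other strand, and reads of the genes cannot be told apart if the counting ignored strand, which the sources used here do not state. HMGCS1, the HMG-CoA synthase, read 9.45, 9.71, 9.85 and 9.67, higher in each resistant line by 0.26, 0.39 and 0.21. After the GC adjustment these were 0.08, 0.44 and 0.28. MVD, the decarboxylase, read 6.52, 6.04, 7.08 and 6.79 and had the widest spread of the arm, with 1.04 between erAlec0 and erCriz0. At 63.7% GC its erCriz0 change of −0.48 was −0.01 after the GC adjustment, and its erAlec0 change of 0.56 was 0.48. The kinases MVK and PMVK lay within 6.41 to 6.63 and 5.97 to 6.26 over the 4 lines. IDI1, the isopentenyl isomerase, lay within 9.25 to 9.43, and FDPS, which makes farnesyl pyrophosphate, within 9.40 to 9.69. FDPS and IDI1 have 8 and 3 annotated pseudogenes by name, so their read assignment is less certain.

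In the sterol arm no gene passed the limit of 1 either, and the 11 genes differed in which line was high. LSS, the cyclase that folds squalene epoxide into lanosterol, read 7.54, 7.33, 8.09 and 8.27 in naive, erCriz0, erAlec0 and erLor0 cells. Its changes of −0.21, 0.55 and 0.73 made it the gene with the largest change of the whole group in erLor0, where 2.84% of expressed genes changed as much. SC5D, the sterol C5-desaturase with the E-box shown above, read 9.24, 9.68, 9.94 and 9.83, higher in every resistant line by 0.44, 0.70 and 0.59. After the GC adjustment these were 0.25, 0.77 and 0.66. MSMO1, the C4-methyl oxidase whose promoter letters hold 4 CCAAT boxes, read 9.53, 9.96, 9.93 and 9.88. It was above the naive value in each resistant line, by 0.43, 0.40 and 0.35, or by 0.24, 0.47 and 0.42 after the GC adjustment.

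The other 8 genes of the sterol arm split. FDFT1, squalene synthase, read 10.22, 10.61, 10.30 and 10.74 in naive, erCriz0, erAlec0 and erLor0 cells, higher in all 3 resistant lines. SQLE, the squalene epoxidase that is a rate-limiting step of the pathway, read 9.69, 9.49, 9.24 and 9.82, lowest in erAlec0. CYP51A1, the lanosterol demethylase, read 4.63, 4.30, 5.15 and 4.89 and lay near the minimum for an expressed gene, where rlog values understate changes. It reached that minimum of 4.64 only in erAlec0 and erLor0, so its order of lines is partly set by the filter. CYP51A1 also overlaps the protein-coding genes ENSG00000285772 and ENSG00000289027 on its own strand. With 3 annotated pseudogenes by name each, CYP51A1 and HSD17B7 have a less certain read assignment. TM7SF2, a C14-reductase, read 8.11, 7.88, 8.53 and 8.26. It thus shared with LSS and CYP51A1 the order of erCriz0 below naive cells and erAlec0 and erLor0 above them. After the GC adjustment the erCriz0 changes of TM7SF2, LSS and CYP51A1 were 0.23, 0.03 and −0.46. Only CYP51A1 stayed below naive cells, and its naive and erCriz0 values both lay below the minimum. NSDHL, a C4-decarboxylating dehydrogenase, lay within 7.52 to 7.69. HSD17B7, the 3-ketosteroid reductase, spanned 6.13 to 6.67 and EBP, the sterol isomerase, 5.78 to 6.21, both lowest in erAlec0. DHCR7, which carries out the last reduction to cholesterol, read 9.61, 9.18, 9.43 and 9.77, lowest in erCriz0. After the GC adjustment its erCriz0 and erAlec0 changes were −0.19 and −0.24. The arm's median changes were −0.20, 0.10 and 0.16 in erCriz0, erAlec0 and erLor0.

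Fatty acid synthesis parted the lines most clearly. FASN, which builds palmitate, read 13.42, 12.16, 12.92 and 13.87 in naive, erCriz0, erAlec0 and erLor0 cells. It fell by 1.26 on the log2 scale in erCriz0, to 0.418 of the naive value, and changed by −0.49 in erAlec0 and 0.45 in erLor0. Only 0.677% of expressed genes changed as low in erCriz0. The FASN transcript has 65.3% GC, genes of like GC content had a median of −0.47 in that line, and the remaining −0.79 is within the limit, as is the −0.98 left after the median of genes within 5 Mb was subtracted. The 5 Mb and GC adjustments left erLor0 at 0.40 and 0.39.

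SCD, the delta-9 desaturase that makes oleate, was likewise lowest in erCriz0 and highest in erLor0, but without a GC-rich transcript and with erAlec0 above naive cells. It read 13.66, 13.03, 13.89 and 14.36 in naive, erCriz0, erAlec0 and erLor0 cells, with changes of −0.62, 0.24 and 0.70. At 46.5% GC its adjusted values were −0.64, 0.27 and 0.72, and 3.12% of expressed genes changed as high in erLor0. SCD has 1 annotated pseudogene by name, so its read assignment is less certain. The pseudogene SCDP1, one of the 76 expressed neighbours of SREBF1 above, changed by −0.36, 0.16 and 0.59 in erCriz0, erAlec0 and erLor0. FASN, SREBF1 and SCD were the 3 genes at least 1 higher in erLor0 than in erCriz0, by 1.71, 1.62 and 1.32, where 2.64% of expressed genes were and none of the group was as much lower. After the GC adjustment the erLor0 and erCriz0 values were 0.39 and −0.79 for FASN and 0.55 and −0.65 for SREBF1.

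**Figure D3:**
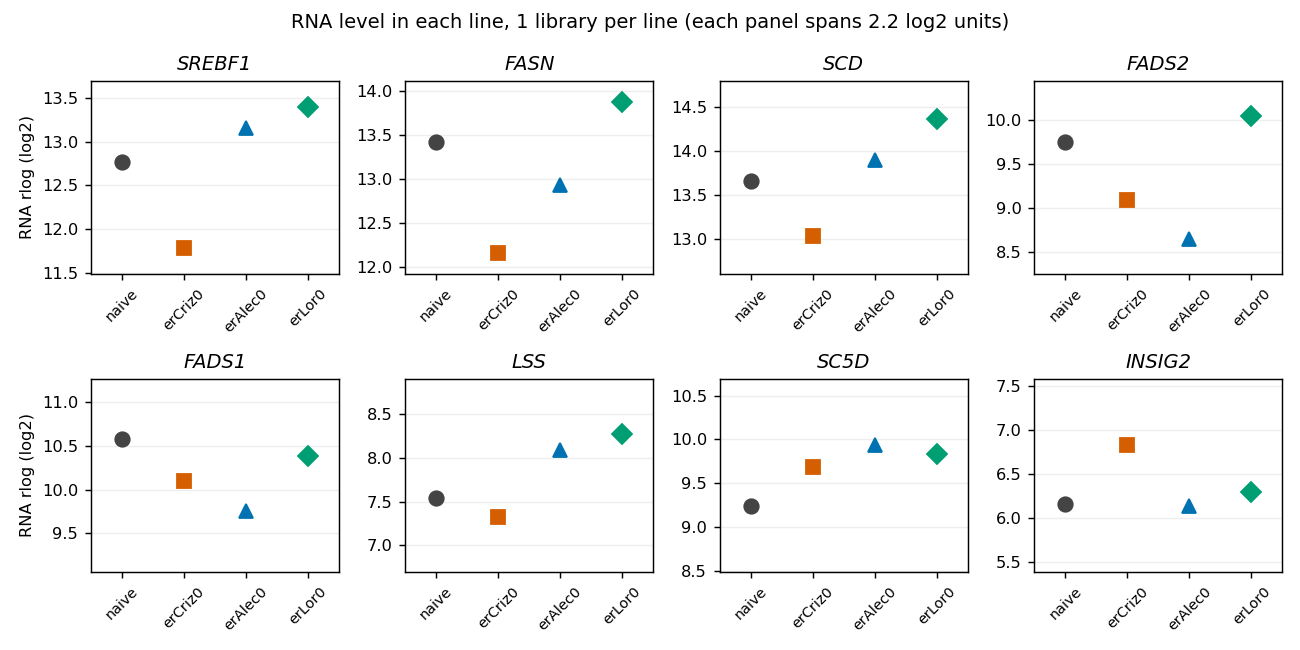
RNA value (rlog, log2 scale) of 8 genes in the naive, erCriz0, erAlec0 and erLor0 libraries, 1 point per library and every panel spanning the same log2 range. SREBF1, FASN and SCD are each lowest in erCriz0 and highest in erLor0, whereas FADS1 and FADS2 are lowest in erAlec0.

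The polyunsaturated fatty acid desaturases were lowest in erAlec0. FADS2 read 9.75, 9.08, 8.64 and 10.05 in naive, erCriz0, erAlec0 and erLor0 cells and fell by 1.11 on the log2 scale in erAlec0, to 0.463 of the naive value, with −0.67 in erCriz0 and 0.30 in erLor0. FADS1, the delta-5 desaturase, read 10.57, 10.10, 9.75 and 10.38, a change of −0.82 in erAlec0. These values were hardly moved by GC content, with −1.16 for FADS2 and −0.83 for FADS1 in erAlec0, nor by genes within 5 Mb, whose median was 0.00. The genes overlap on opposite strands, so they are not independent if the counting ignored strand. FADS2 was the only gene at least 1 higher in erLor0 than in erAlec0, by 1.41, where 0.575% of expressed genes were. Between erAlec0 and erCriz0 SREBF1 and MVD were higher by 1.38 and 1.04, where 3.22% of expressed genes were. After the GC adjustment the erAlec0 and erCriz0 values were 0.26 and −0.65 for SREBF1 and 0.48 and −0.01 for MVD.

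Earlier and later steps of the fatty acid arm varied less. ACLY, which supplies cytosolic acetyl-CoA, read 10.59, 10.69, 10.49 and 10.79 in naive, erCriz0, erAlec0 and erLor0 cells, and ACACA, the acetyl-CoA carboxylase, 11.79, 11.46, 11.52 and 11.99. Both were highest in erLor0. ELOVL6, which lengthens palmitate, read 8.76, 8.79, 8.24 and 8.20 and was the gene with the most negative erLor0 change, −0.56, which 4.01% of expressed genes reached. ELOVL5, an elongase of polyunsaturated chains, lay within 9.78 to 10.15. The 8 genes of the arm had median changes of −0.41, −0.38 and 0.20 in erCriz0, erAlec0 and erLor0. STARD4, a cytosolic sterol carrier, read 8.22, 8.67, 8.51 and 7.88 and had its highest value in erCriz0 and its lowest in erLor0, with changes of 0.45, 0.29 and −0.34.

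Acetylation at the promoters was a little higher in the resistant lines, nearly as at other promoters. A promoter peak within 1 kb of the annotated gene start was present for 31 of the 32 genes, all except FDFT1. Of these 31 peaks 31, 26 and 29 were higher in erCriz0, erAlec0 and erLor0, where 85.5%, 73.7% and 86.7% of the promoter peaks of 11434 expressed genes were. Their median changes of 0.47, 0.37 and 0.46 compare with 0.34, 0.26 and 0.41. When compared with peaks of like height they were 0.13, 0.054 and 0.036 higher at the median. At the limit of 1, 4 promoter peaks were up in erCriz0 and 3 each in erAlec0 and erLor0, where 4.08%, 6.6% and 7.85% were, and 0 were down, where 0.341%, 1.23% and 0.656% were. For FDFT1 the peak at chr8:11798717-11804389, which lies at other annotated transcript starts of the gene, changed by 0.72, 0.83 and 0.97, a peak chosen after the values had been seen.

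By the peak at the annotated gene start, the promoters up in at least 1 line were those of ELOVL5, STARD4, CYP51A1, SC5D and LSS. When any annotated transcript start was allowed, the peak of ACACA (chr17:37294521-37302841) changed by 0.45, 1.18 and 1.61 in erCriz0, erAlec0 and erLor0. That of SCAP (chr3:47421259-47426316) changed by 0.05, 0.69 and 1.07. The peaks so chosen for ACLY, FADS1 and FDFT1 stayed within the limit, and this choice was made after the values had been seen. The ELOVL5 promoter peak (chr6:53347345-53349491) read 6.43, 7.76, 7.48 and 7.64 in naive, erCriz0, erAlec0 and erLor0 cells and rose by 1.33, 1.04 and 1.20, although ELOVL5 RNA changed by 0.11, −0.27 and −0.05. It was up in all 3 lines. The CYP51A1 peak (chr7:92133294-92135846) read 8.004, 9.09, 8.85 and 9.12, up in erCriz0 and erLor0. The SC5D peak (chr11:121291897-121294068), at the stretch shown above, read 7.36, 8.37, 8.41 and 8.17, up in erCriz0 and erAlec0, and SC5D RNA was also higher in all 3 lines. The LSS peak (chr21:46229191-46230852) read 6.48, 6.84, 7.34 and 7.73. Its order of lines had erCriz0 above naive cells, unlike that of its RNA before the GC adjustment. The STARD4 peak (chr5:111511704-111513496) read 6.84, 7.99, 7.96 and 7.28, up in erCriz0 and erAlec0, the lines where STARD4 RNA was also highest. By contrast the promoter peaks of FASN (chr17:82095071-82111258) and SCD (chr10:100345429-100349718) changed by 0.20 and 0.06 in erCriz0, where both RNAs were lower.

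RNA and promoter peak had the same sign of change in 11, 18 and 25 of the 31 genes in erCriz0, erAlec0 and erLor0, where 51.5%, 51.3% and 51.0% of 11434 expressed genes did. These counts follow from most promoter peaks being higher while RNA was mostly lower in erCriz0 and mostly higher in erLor0. By rank, the changes were correlated at 0.37, 0.45 and 0.27 across the 31 genes, against 0.24, 0.04 and 0.13 across 11434. All points of a line share its libraries and the naive ones, and genes are not independent replicates, so these are descriptions.

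**Figure D4:**
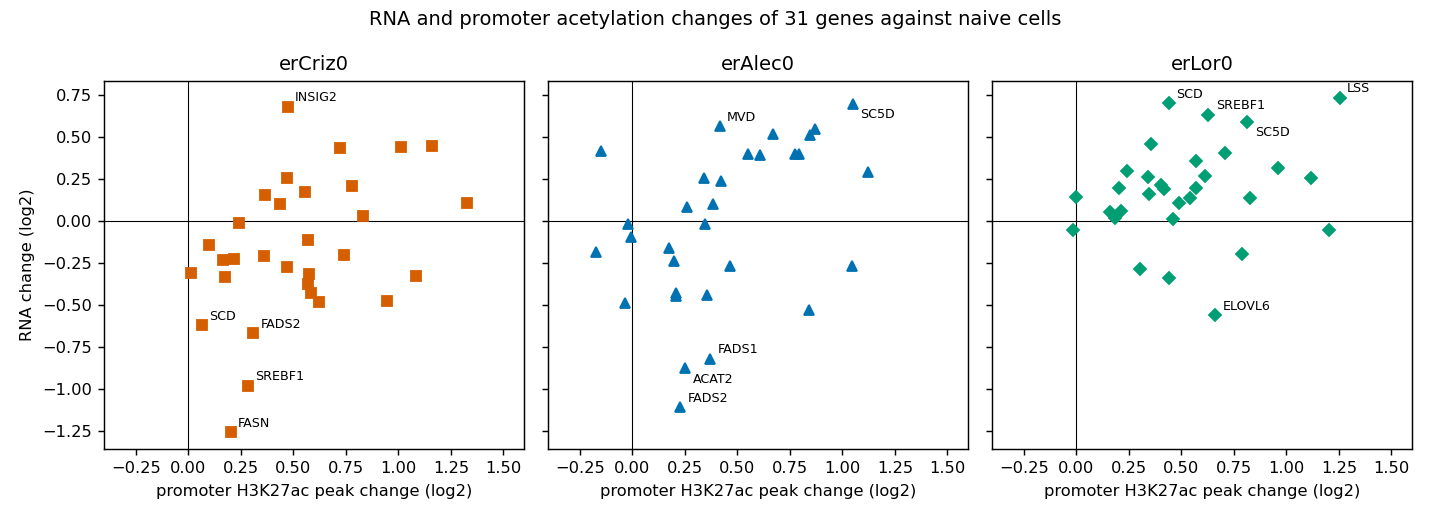
RNA change against the change of the promoter H3K27ac peak (both log2, resistant line minus naive cells) for the 31 genes with a peak within 1 kb of their start, 1 panel per line, with named genes at the extremes. In erCriz0 all 31 points lie right of 0 while FASN and SREBF1 lie lowest, and in erLor0 LSS lies at the upper right.

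Over all peaks within 20 kb, the 32 genes were paired with 255 peaks in 263 pairs. The median change over pairs was 0.20, 0.20 and 0.21 in erCriz0, erAlec0 and erLor0, against −0.01, −0.03 and 0.02 over the pairs of expressed genes. Of the 255 peaks 20, 28 and 16 were up, where 5.51%, 12.2% and 6.95% of 90942 peaks were, and 4, 3 and 2 were down, where 5.5%, 8.25% and 7.07% were. These peaks were therefore seldom down, while the share that was up lay near the background. SCD differed from this pattern in erCriz0, where 11 of its 14 peaks were lower and the 3 largest falls among peaks that reached log2 of 15 reads lay within the gene. The largest was at chr10:100350971-100351397, which read 4.30 in naive and 3.17 in erCriz0 cells, a fall past the limit, and 3.64 and 4.10 in erAlec0 and erLor0. The next ones changed by −0.91 and −0.81. FASN had 12 peaks, none past the limit, with medians of −0.24, −0.34 and −0.10 in erCriz0, erAlec0 and erLor0. SCAP, ELOVL5 and ACACA had peaks inside the gene that were up. SCAP had 6 of its 15 peaks up in erAlec0, 1 of them outside the gene, led by the intragenic peak chr3:47458551-47459610, which read 3.38, 3.42, 5.65 and 4.21 in naive, erCriz0, erAlec0 and erLor0 cells. ELOVL5 had 5 of its 13 peaks up in erAlec0, 1 of them outside the gene, and 5 in erLor0, its promoter peak among them in both, and the ACACA peak chr17:37294521-37302841 read 8.20, 8.65, 9.38 and 9.81. Some of the SCAP peaks up in erAlec0, and the ELOVL5 peak chr6:53292419-53292686, stayed below log2 of 15 reads in every library.

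The largest rise in each line was at a peak beyond the gene, and it came without a like change of that gene's RNA. The SCAP peak within the gene described above rose nearly as much in erAlec0, by 2.27, where SCAP RNA changed by 0.40. Past the end of MVK, the peak chr12:109606399-109608733 read 4.67, 7.39, 4.95 and 4.63 in naive, erCriz0, erAlec0 and erLor0 cells, a rise of 2.72 in erCriz0 alone. Its neighbour chr12:109609075-109610230 rose by 2.11 in erCriz0, with 0.25 and −0.11 in erAlec0 and erLor0. Both are paired only with MVK in the table, whose RNA changed by −0.01, −0.16 and 0.06. Ahead of STARD4, the peak chr5:111520019-111523229, 7429 bases from the start, read 5.68, 4.93, 7.97 and 7.60, a rise of 2.29 in erAlec0 and 1.93 in erLor0 and a change of −0.74 in erCriz0. STARD4 RNA changed by 0.29, −0.34 and 0.45 in these lines. It is also paired with STARD4-AS1. The central bases of the first MVK peak and of this STARD4 peak are shown from hg38, plus strand, because they held the largest rise of a line.
The MVK stretch is chr12:109607416-109607715 and holds no AP-1 motif (TGANTCA), sterol response element, E-box or CCAAT box on either strand.
MVK peak: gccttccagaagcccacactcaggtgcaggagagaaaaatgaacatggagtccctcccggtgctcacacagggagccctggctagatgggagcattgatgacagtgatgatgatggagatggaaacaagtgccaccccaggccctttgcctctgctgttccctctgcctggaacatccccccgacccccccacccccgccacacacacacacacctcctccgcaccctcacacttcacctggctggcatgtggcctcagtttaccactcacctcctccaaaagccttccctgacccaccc
The STARD4 stretch is chr5:111521474-111521773 and holds 1 AP-1 motif and 1 CCAAT box, in capitals.
STARD4 peak: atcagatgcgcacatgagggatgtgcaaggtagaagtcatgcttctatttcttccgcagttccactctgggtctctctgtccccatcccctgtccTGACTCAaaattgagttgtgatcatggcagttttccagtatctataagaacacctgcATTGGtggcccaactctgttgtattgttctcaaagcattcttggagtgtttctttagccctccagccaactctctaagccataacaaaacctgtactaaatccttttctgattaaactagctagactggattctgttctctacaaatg
In the same central windows of all 126470 peaks an AP-1 motif was found in 9.68%, a CCAAT box in 30.8%, an E-box in 4.5% and a sterol response element in 2.49%. Of the 16 peaks with the largest changes at these genes, 2 held an AP-1 motif, those at STARD4 and ACACA, 5 a CCAAT box and 0 an E-box or a sterol response element.

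Other peaks of the mevalonate kinases moved in opposite directions between lines. The peak chr12:109583722-109590944 within MVK read 8.69, 10.18, 7.58 and 7.90 in naive, erCriz0, erAlec0 and erLor0 cells, a rise of 1.499 in erCriz0 and a change of −1.11 in erAlec0 and −0.79 in erLor0. It is also paired with MMAB. The peak chr1:154931488-154933503 within PMVK read 6.63, 7.84, 5.49 and 5.43, a rise of 1.21 in erCriz0 and a fall in erAlec0 and erLor0, with changes of −1.14 and −1.20. It is also paired with PBXIP1. At MVD the peak chr16:88650649-88653082 changed by 0.86, −1.38 and −0.34 in erCriz0, erAlec0 and erLor0 and is shared with CYBA, IL17C and ZC3H18. These are the 3 peaks that fell most in erAlec0 among paired peaks that reach log2 of 15 reads. Their low erAlec0 values therefore follow from how they were chosen. At all 3 erCriz0 was above naive cells, while the RNA of MVK and PMVK was close to naive levels. The RNA of MVD differed the other way, by −0.48 in erCriz0 and 0.56 in erAlec0. After the GC adjustment these were −0.01 and 0.48, so in erCriz0 little of the difference was left.

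**Figure D5:**
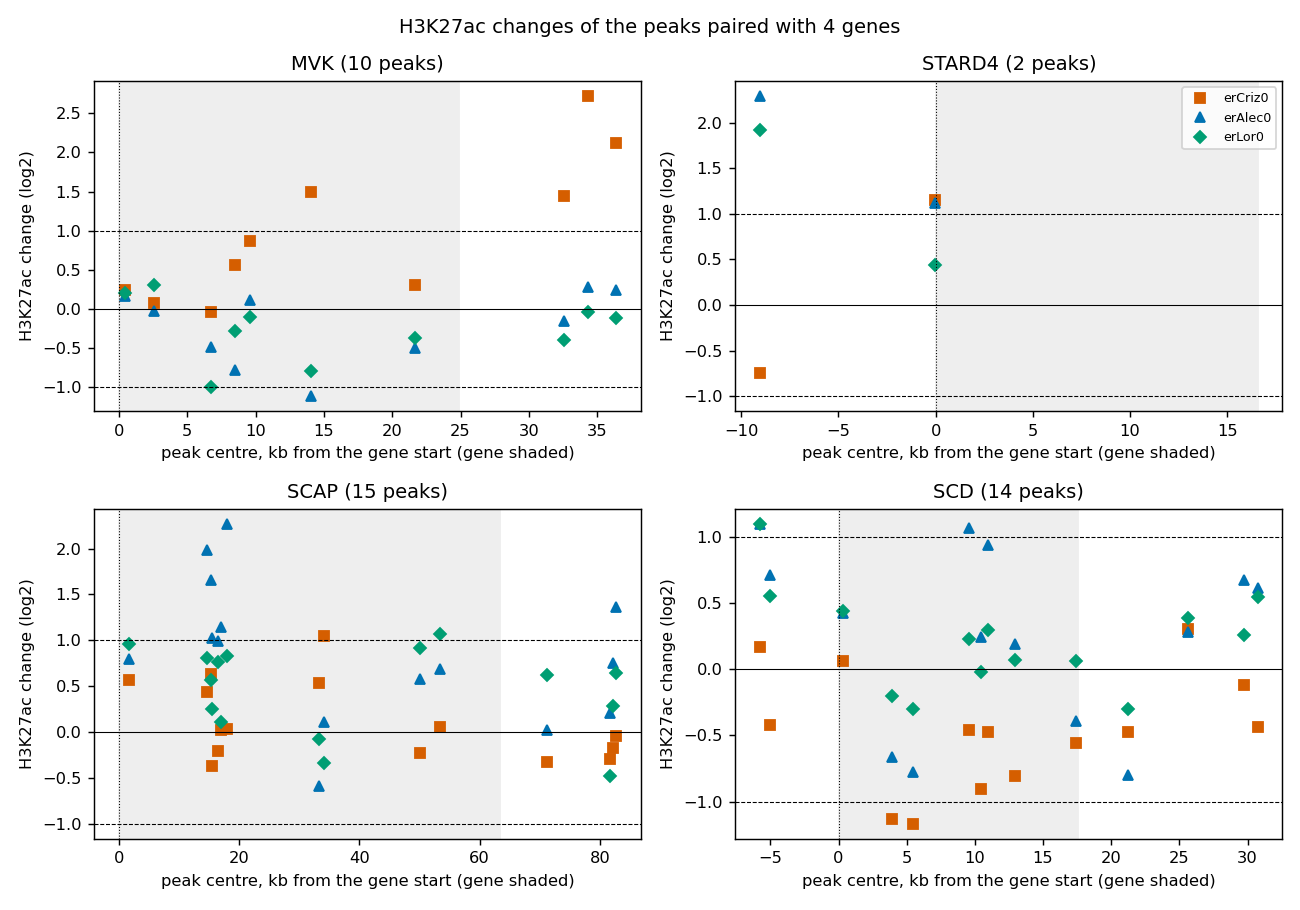
H3K27ac change (log2) of every peak paired with MVK, STARD4, SCAP and SCD against the distance of its centre from the gene start in kb, with the gene shaded, 1 symbol per resistant line and dashed lines at −1 and 1. MVK has rises past its end in erCriz0 alone, STARD4 a peak ahead of its start that is high in erAlec0 and erLor0, SCAP a cluster of erAlec0 rises inside the gene, and 11 of the 14 SCD peaks are below 0 in erCriz0.

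Of 39 other genes of sterol and fatty acid metabolism, 35 were expressed, and few passed the limit. In erCriz0 2 were up and 2 down, where 2.65% and 1.65% of expressed genes were. In erAlec0 0 and 0 were, against 2.46% and 2.07%, and in erLor0 1 and 0, against 1.1% and 0.74%. Counts this small do not set these genes apart. Their median changes were −0.04, −0.05 and 0.06 in erCriz0, erAlec0 and erLor0. ABCA1, the cholesterol exporter driven by LXR, rose by 1.24 in erCriz0, and ACSL5, an acyl-CoA synthetase, by 1.24. TMEM97, a sterol-responsive membrane protein, fell by 1.09 in erCriz0, and MLXIPL, the glucose-responsive factor ChREBP that drives lipogenic genes, fell by 1.36. After the GC adjustment these were 1.18, 1.18, −1.17 and −1.02, all still past the limit. ACSL1, another acyl-CoA synthetase, rose by 1.07 in erLor0.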

How the data were processed

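The authors deposited 1 table that pairs peaks with genes at most 20 kb apart. Its values are on a log2 scale, from read counts that the authors passed through the rlog function of DESeq2 over the 4 libraries. RNA reads had been aligned to hg38 with HISAT2 and counted with HTSeq-count, and peaks had been called with MACS2, merged over 4 samples and counted with featureCounts. Versions are not given in the sources used here, nor is the strand setting of the counting. The deposited correlation scores per pair, r over the 4 lines, and their p-values were not used. No column of values was left unmapped, and RNA columns were assigned to samples by the line they name.

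Changes were differences of rlog values with a limit of 1, as the methods of the study use, and no test, because each line has 1 library. The rlog function draws features with few reads toward their mean. The 32 genes and the other lists were chosen with earlier results of these data known. All 32 genes are named, with their promoter peaks, the 3 rising most and the 3 falling most per line of all paired peaks that reach log2 of 15 reads, and other pathway genes past the limit. Regional medians cover expressed genes or peaks within 5 Mb. GC content and overlaps came from GENCODE release 44, and GC and level bins numbered 20. Python 3.11.15, numpy 2.4.6, pandas 2.3.3, pysam 0.24.0 and matplotlib 3.10.9 were used, and the scripts were tested on simulated data. Read totals cannot be recovered from rlog values.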

Additional observations from a re-analysis of the deposited data

Results flagged for a closer look

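The differences between lines below joined opposite signs against the shared naive library, and none was tested, since each line has 1 library. SREBF1 RNA was lower than in naive cells in erCriz0 and higher in erLor0, a difference of 1.62. SCD RNA did the same, with a difference of 1.32. The H3K27ac peak within MVK at chr12:109583722-109590944 was 2.61 higher in erCriz0 than in erAlec0, with naive cells in between. The peak within PMVK at chr1:154931488-154933503 was 2.41 higher in erCriz0 than in erLor0, again with naive cells in between.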

How the results depend on the processing

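No paired analysis was possible because each line has 1 library. Of the values of single genes under other settings, 404 moved by less than 0.1 on the log2 scale, and 76 moved by more. Between 3 and 12 of 96 values per setting changed sign, none of them a change of 1.5-fold or more. SREBF1 in erAlec0, at −0.50 relative to genes within 5 Mb, is one of them. For the group, the erCriz0 RNA median was −0.083 relative to genes within 5 Mb and −0.026 after GC adjustment. At 1.5-fold, 1, 1 and 4 genes were up in erCriz0, erAlec0 and erLor0, and 4 and 3 were down in erCriz0 and erAlec0. In erCriz0 2 genes, FASN and SREBF1, were down after quantile normalization and 2 after level adjustment, but 0 after GC adjustment, where FASN fell short of the limit, as it did relative to genes within 5 Mb. Median promoter changes were 0.28, 0.23 and 0.32 after quantile normalization and 0.13, 0.054 and 0.036 relative to peaks of like level in erCriz0, erAlec0 and erLor0, and 0.56 in erLor0 after centring. Over pairs, the medians were 0.35 in erCriz0 and 0.43 in erAlec0 with peaks paired with 1 gene, 0.045 in erAlec0 relative to peaks within 5 Mb, and 0.31 in erLor0 after centring. The GC and level adjustments were added once values were known, and the cause of these shifts was not tested. The other 78 group values were within 0.1, or within 1.5 times for counts. With 1 library per line and unknown depth, no difference has an error.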
